A study of Mus musculus with 6 samples.

Results

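The 9 genes described here, *Acot1*, *Acot2*, *Pdk4*, *Angptl4*, *Ucp2*, *Ucp3*, *Plin2*, *Plin5* and *Cd36*, are lipid genes that peroxisome proliferator-activated receptors (PPARs) are known to induce. They handle the release of fatty acids from coenzyme A, uncoupling, fuel choice, lipid storage and fatty acid uptake, and lie outside β-oxidation itself. They were found by symbol in a table of 20066 genes from RNA sequencing, and all 9 were listed. The set was chosen by gene function with the log2 differences between αKG and DMSO of these same libraries in view, so the values of the 9 genes are a description and carry no test.

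The cells were primary cardiomyocytes (CMs) of C57BL/6 pups at postnatal days 0 to 1, all of the same genotype and with no transgene. A culture of 96 h followed, with either α-ketoglutarate (αKG), a Krebs cycle intermediate, in a form that enters cells, or its solvent dimethylsulfoxide (DMSO). Each treatment had 3 libraries of total RNA. The labels give 100 µM αKG, whereas the methods of the study give another concentration. Per those methods, whole neonatal hearts were dissociated and plated on fibronectin in medium with serum, and no sorting of the CMs is described. The labels do not say whether the 3 libraries of a group came from separate cultures or animals. In their section on staining, the methods state that each neonatal CM sample stood for a single isolation of pooled hearts. They do not say so for the RNA libraries, so the spread between these may be technical.

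Values are normalized read counts, for which the authors had scaled the reads per gene of each library to a common depth and rounded them to whole numbers. The depth, estimated from the spacing of low values, was 3724762 to 4428177 reads in genes per library. αKG replicate 3 stood apart from its group. Across genes, its log2 values correlated with DMSO libraries at 0.977 to 0.98 but with αKG replicates 1 and 2 at 0.962 and 0.963, whereas αKG replicates 1 and 2 correlated with each other at 0.978. All CM markers were detected, led by the sarcomere gene *Ttn* (titin), the calcium channel *Ryr2* and the myosin *Myh6*, and their summed value was 75542 to 78250 in DMSO and 108429, 111618 and 80135 in αKG replicates 1 to 3. The median log2 difference over the 10 CM markers was 0.08, and 0.15, 0.10 and -0.0001 in αKG replicates 1 to 3. The sum is weighted to the most abundant markers, and the median is not.

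PPARs are nuclear receptors that respond to fatty acids. They bind DNA together with a retinoid X receptor (RXR), at a direct repeat of AGGTCA with a spacer of a single base, which is called a DR1. PPARα and PPARβ/δ are the forms known for setting the fatty acid use of the heart, where their targets rise with fasting, with lipid supply and in the weeks after birth. Several of the 9 genes also have other known inducers: *Pdk4* responds to glucocorticoids and FOXO factors, and *Angptl4* to glucocorticoids and to hypoxia-inducible factors (HIF).

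To show where such letters lie, promoter windows of 300 bases (250 before and 50 after a start) were taken from RefSeq on GRCm38.p6. They held 8 of the 9 genes, all but *Angptl4*, and 9 windows, because *Plin5* has a pair of starts. The DR1 letters (AGGTCA, any base, AGGTCA) were searched on both strands. No window of the 9 genes held them exactly or with 1 mismatch, and the share of all 32841 windows that did was 0.0396% and 0.554%. With up to 2 mismatches, 3 of the 9 windows held a match, those of *Ucp3*, *Plin2* and *Cd36*, against 3.86% of all windows. A single copy of AGGTCA, which also lies within every exact DR1, stood in 5 of the 9 windows and in 16.3% of all. These matches are a description of letters and not of binding. The 3 windows with a match are printed below on the strand of the gene, with the match in capitals, and the window of *Acot1* is printed because this gene had the highest log2 difference of the 9 and no match with up to 3 mismatches. The windows are chr7:100472741-100473040 (plus strand) for *Ucp3*, chr4:86670010-86670309 (minus strand) for *Plin2*, chr5:17835847-17836146 (minus strand) for *Cd36* and chr12:84009252-84009551 (plus strand) for *Acot1*.
Ucp3: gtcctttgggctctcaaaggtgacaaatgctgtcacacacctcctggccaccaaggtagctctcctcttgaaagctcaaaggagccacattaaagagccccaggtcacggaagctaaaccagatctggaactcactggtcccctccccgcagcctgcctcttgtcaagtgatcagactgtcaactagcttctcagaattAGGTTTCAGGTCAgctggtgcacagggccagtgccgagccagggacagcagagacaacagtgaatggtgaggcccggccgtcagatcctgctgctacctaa
Plin2: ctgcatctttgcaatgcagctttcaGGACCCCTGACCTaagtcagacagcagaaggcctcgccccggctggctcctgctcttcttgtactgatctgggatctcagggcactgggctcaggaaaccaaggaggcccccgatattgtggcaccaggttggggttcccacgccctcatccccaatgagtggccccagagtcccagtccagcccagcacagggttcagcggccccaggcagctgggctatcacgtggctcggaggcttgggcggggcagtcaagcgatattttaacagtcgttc
Cd36: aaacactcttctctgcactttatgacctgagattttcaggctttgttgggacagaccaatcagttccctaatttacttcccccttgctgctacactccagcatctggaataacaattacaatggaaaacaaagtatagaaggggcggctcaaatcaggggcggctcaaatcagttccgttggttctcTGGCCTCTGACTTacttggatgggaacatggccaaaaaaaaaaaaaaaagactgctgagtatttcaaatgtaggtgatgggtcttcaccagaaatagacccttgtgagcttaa
Acot1: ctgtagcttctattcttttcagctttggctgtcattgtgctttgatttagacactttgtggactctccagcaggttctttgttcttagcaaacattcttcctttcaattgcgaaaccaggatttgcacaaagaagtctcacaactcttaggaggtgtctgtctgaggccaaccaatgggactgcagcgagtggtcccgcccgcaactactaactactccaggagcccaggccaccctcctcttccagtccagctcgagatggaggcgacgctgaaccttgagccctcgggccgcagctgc
In *Ucp3* the match began 51 bases before the start, in *Cd36* 63 bases and in *Plin2* 225 bases before it. The *Plin2* and *Cd36* matches read in the motif's direction on the opposite strand. The *Cd36* window lies inside the span of the gene in the deposited table, since *Cd36* has further starts upstream.

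Which of these genes differ between αKG-treated and control CMs was asked next. With αKG, the thioesterases *Acot1* and *Acot2*, the uncoupling protein *Ucp2* and the lipid droplet protein *Plin5* rose, by 1.15 to 2.87 on the log2 scale. *Pdk4*, *Angptl4* and *Ucp3* had higher values in each αKG library than in any DMSO library but did not pass the threshold, *Cd36* overlapped, and *Plin2* had lower values in every αKG library. The threshold was a Benjamini-Hochberg adjusted p of 0.05 in limma on log2(value + 1) over all 20066 genes. It was passed by 4 of the 9 genes, all higher, beside 2.83% of all genes higher and 0.952% lower (3.78% in either direction). Every αKG library lay above every DMSO library for 7 of the 9 genes (13.7% of all genes) and below for 1 (14.6%). At an unadjusted p under 0.05 there were 7 of the 9, beside 28.1% of all genes. Because this contrast was known when the genes were chosen, nothing is read from these counts.

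**Figure D1:**
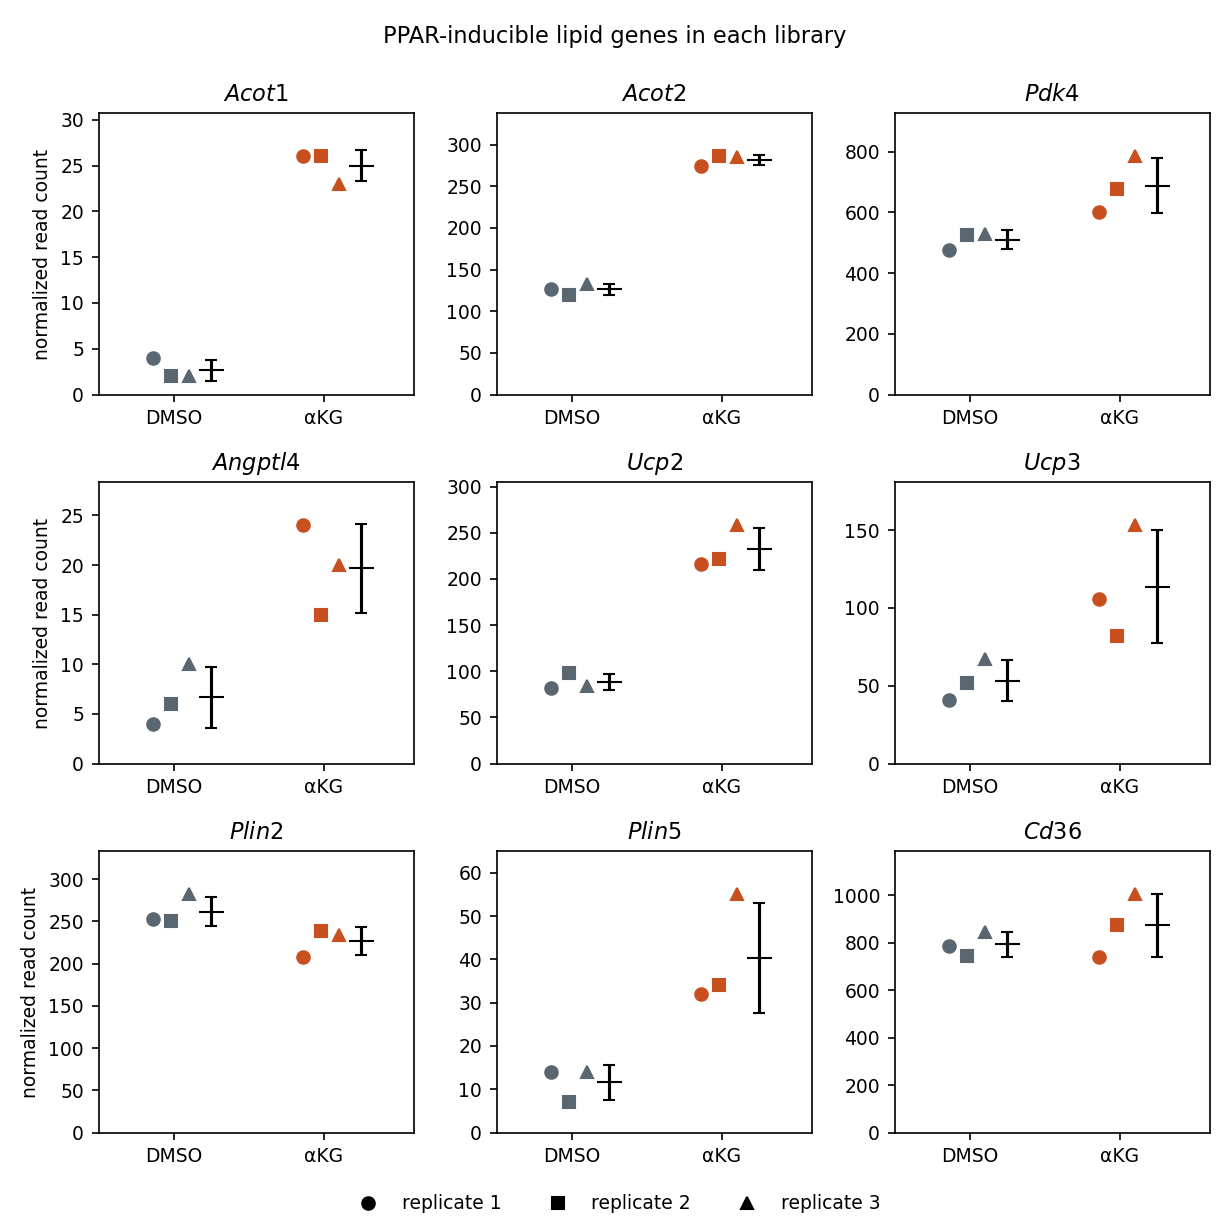
Normalized read count (vertical axis, starting at 0) of each of the 9 genes in the 3 DMSO libraries (grey) and the 3 αKG libraries (orange), with a circle, square and triangle for replicates 1 to 3 and the mean ± SD of each group as a black bar. The groups are separate in every panel but that of *Cd36*, and *Plin2* is the gene whose αKG libraries all lie lower.

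The calls depended on single libraries. Without αKG replicate 3, limma called 7 of the 9 genes, where it called 37.2% of all genes. Without DMSO replicate 1 it called 3 (0.758% of all genes). It called 0 of the 9 without αKG replicate 1 and 0 without αKG replicate 2 (0.0% of all genes in each). Calls were also 0 without DMSO replicate 2 (0.015%) and 0 without DMSO replicate 3 (0.0199%). In each of the last 4 fits, 7 or 8 of the 9 had an unadjusted p under 0.05, beside 16% to 17.8% of all genes. Nothing is read from these counts either, since the genes were chosen with this contrast known. With all libraries, limma-voom called 3 (1.75%), limma without a variance trend 2 (0.135%), and limma with DMSO replicates 2 and 3 averaged into 1 sample 2 (0.0947%). In 15 alternative fits no log2 difference of the 9 genes changed sign. This was largely fixed in advance, because the groups overlapped only for *Cd36*. For the other genes, leaving out or averaging libraries could not change the sign.

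The median log2 difference of the 9 genes was 1.15, and that of all genes 0.04. Taken library by library against the DMSO mean, the median of the 9 genes was 1.12, 1.14 and 1.53 in αKG replicates 1, 2 and 3, so the library that resembled the controls across the transcriptome had the highest value. The 568 genes called higher had medians of 1.05, 0.99 and 0.78 in the same 3 libraries. αKG replicate 3 was the highest of all 6 libraries for 5 of the 9 genes, *Pdk4*, *Ucp2*, *Ucp3*, *Plin5* and *Cd36* (13.0% of all genes). This was not particular to the 9 genes, since it was also the highest for 15 of 37 genes of fatty acid import and β-oxidation. Without αKG replicate 3 the median of the 9 genes was 1.15 as well.

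**Figure D2:**
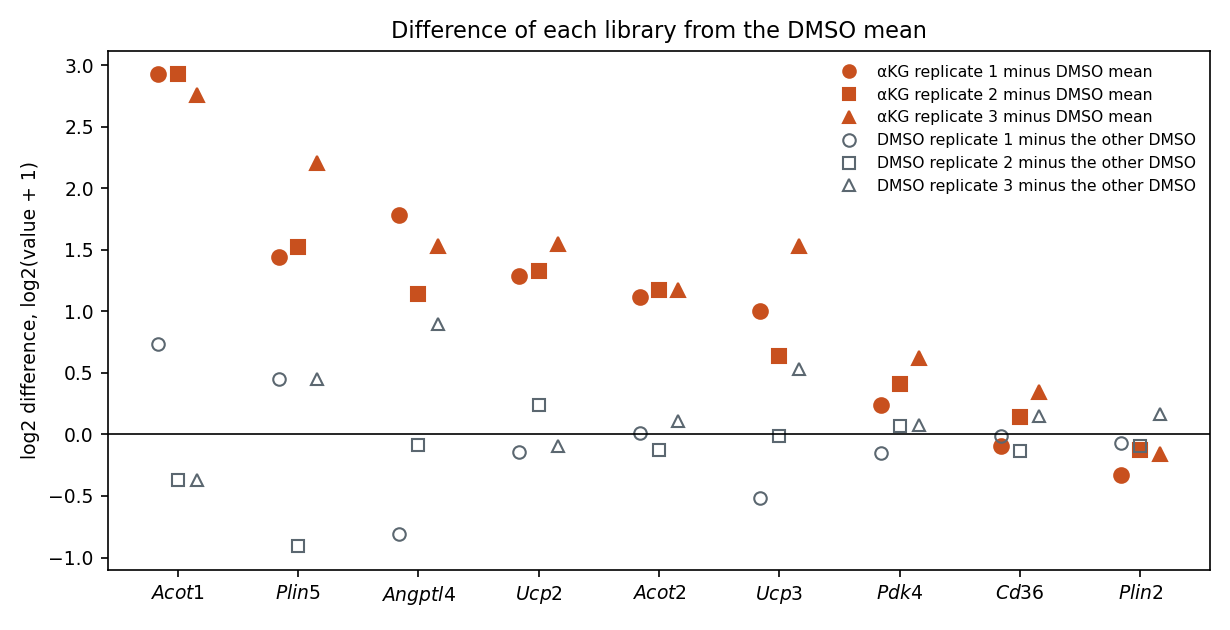
Difference of each αKG library from the DMSO mean (filled) and of each DMSO library from the mean of the other DMSO libraries (open), in log2(value + 1), for the 9 genes ordered by their mean difference. Filled symbols lie at 2.75 to 2.92 for *Acot1* and at 1.12 to 1.17 for *Acot2*, whereas the triangle of αKG replicate 3 stands above the other filled symbols for *Plin5*, *Ucp2*, *Ucp3*, *Pdk4* and *Cd36*.

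Acyl-CoA thioesterases release free fatty acids from coenzyme A. *Acot1* encodes the cytosolic enzyme and *Acot2* its close relative in mitochondria. *Acot1* (ENSMUSG00000072949, GRCm38 chr12:84009490-84018371, plus strand) had 4, 2 and 2 normalized counts in the DMSO libraries and 26, 26 and 23 in those of αKG, each in the order of replicates 1 to 3, as for all genes that follow. It was thus close to the detection limit in control cells and present at a similar low level in every αKG library. Its mean rose from 2.67 ± 1.15 to 25 ± 1.73 (SD, n = 3), a log2 difference of 2.87 ± 0.37 (SE). In estimated reads, pooled over the libraries of each group, this was 8 against 71, a ratio of 9.59. The exact 95% counting interval was 4.61 to 23.1. It covers counting error and not the spread between libraries, and is no test.

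*Acot2* (ENSMUSG00000021226, chr12:83987861-83993873, plus strand) had 127, 119 and 133 counts in DMSO and 275, 286 and 285 in αKG. The groups were far apart compared with the spread inside each, and αKG replicate 3 did not differ from its group here. The mean rose from 126 ± 7.02 to 282 ± 6.08, a ratio of 2.23 and a log2 difference of 1.15 ± 0.10. *Acot2* was called in 11 of 15 alternative fits and *Acot1* in 9.

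The 2 genes are neighbours on the same strand, 15616 bp apart with no listed protein-coding gene between them. They share sequence: 581 of 3878 stretches of 75 bases (the read length) in *Acot1* transcripts, or 15.0%, occur in another gene, 434 of them in *Acot2*, and 21.2% of those in *Acot2* occur in another gene. The authors left out reads that fit several places, so such stretches were not counted for either gene. Downstream lie *Acot4* and *Acot6*, of the same family. *Acot6* had 21, 19 and 21 counts in DMSO and 37, 34 and 26 in αKG and did not pass (0.63 ± 0.25, limma adjusted p = 0.136), and *Acot4* was at 0 to 8 counts. Per exon length, *Acot2* made up 93.7 ± 0.69% of these 4 genes in DMSO and 91.4 ± 1.16% in αKG, and *Acot1* 1.11 ± 0.46% and 4.54 ± 0.32%. Upstream, *Heatr4* had 0 counts in 5 libraries and *Riox1* overlapped between the groups (-0.32 ± 0.28).

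Of 14 other thioesterase genes, 9 were listed and 0 passed in limma or limma-voom. At an unadjusted p under 0.05 there were 2 (28.1% of all genes). Their median log2 difference was 0.13. The most abundant were *Acot13*, a mitochondrial thioesterase, with 371, 360 and 376 counts in DMSO and 284, 330 and 339 in αKG (-0.22 ± 0.09, limma adjusted p = 0.161), and *Acot9*, also mitochondrial, with 257, 255 and 253 in DMSO and 234, 271 and 246 in αKG.

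Uncoupling proteins are carriers of the inner mitochondrial membrane. *Ucp3* is typical of muscle and heart, and *Ucp2* is widely expressed. *Ucp2* (ENSMUSG00000033685, chr7:100493337-100502020, plus strand) had 82, 98 and 84 counts in DMSO and 216, 222 and 258 in αKG. All αKG libraries were higher, αKG replicate 3 most. The mean rose from 88 ± 8.72 to 232 ± 22.7, a ratio of 2.64 and a log2 difference of 1.39 ± 0.13 (1.31 without αKG replicate 3). The exons of *Ucp2* are overlapped on the opposite strand by *Dnajb13*, which the table did not list. The counting is not stated to use strand. Since the authors left out reads that overlap several genes, reads in that stretch would count for *Ucp2* only if strand was used.

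*Ucp3* (ENSMUSG00000032942, chr7:100472990-100486432, plus strand) had 41, 52 and 67 counts in DMSO and 106, 82 and 153 in αKG. The libraries of each group were spread widely, with the highest value in αKG replicate 3, but the groups did not overlap. Means were 53.3 ± 13.1 and 114 ± 36.1, a log2 difference of 1.06 ± 0.25 that did not pass the threshold. It passed in 2 of 15 alternative fits, with all libraries scaled to the same total, where it was 1.03, and without αKG replicate 3, where it was 0.82. *Ucp3* and *Ucp2* are neighbours as well, 6904 bp apart on the same strand with no listed protein-coding gene between. On the left, *C2cd3* had a log2 difference of 0.14 ± 0.09 and *Ppme1* of -0.13 ± 0.07. On the right, *Coa4* had one of -0.66 ± 0.21 and *Mrpl48* of -0.33 ± 0.14. None of these 4 neighbours, named for their position, passed (limma adjusted p of 0.0924 to 0.36).

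No related carrier passed. Of 6 genes, 5 were listed (*Ucp1* was not) and 0 passed in limma or limma-voom. At an unadjusted p under 0.05 there were 0 (28.1% of all genes). The ADP/ATP carrier *Slc25a4*, the most abundant, had means of 922 ± 36.7 and 919 ± 39.5, and its relative *Slc25a5* means of 507 ± 20.8 and 461 ± 41.9.

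*Pdk4* encodes the pyruvate dehydrogenase (PDH) kinase that turns cells from glucose to fatty acids. It (ENSMUSG00000019577, chr6:5483351-5496309, minus strand) had 476, 527 and 529 counts in DMSO and 603, 678 and 785 in αKG. Every αKG library was higher, but the αKG libraries differed from each other more than those of DMSO. Means were 511 ± 30.0 and 689 ± 91.5, a ratio of 1.35 and a log2 difference of 0.42 ± 0.10. This did not pass the threshold. It passed in 4 of 15 alternative fits, which were a pseudocount of 5, only genes with a mean value of at least 10, quantile normalization, and leaving out αKG replicate 3, where the difference was 0.33.

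Among the 4 PDH kinases, *Pdk4* took 28.4 ± 2.09% of the level per exon length in DMSO and 36.5 ± 2.39% in αKG, and its share was higher in each αKG library than in each DMSO library. The share of *Pdk2*, the widely expressed kinase, was 40.2 ± 0.75% in DMSO and 24.9%, 22.7% and 31.5% in αKG replicates 1 to 3. *Pdk2* itself, named here after its values were seen, had 669, 616 and 673 counts in DMSO and 384, 397 and 568 in αKG (-0.56 ± 0.14, limma adjusted p = 0.0527). *Pdk1*, a HIF target, had 565, 531 and 577 counts in DMSO and 771, 996 and 554 in αKG, so that αKG replicate 3 lay within the DMSO range (0.43 ± 0.17, limma adjusted p = 0.141). Of the 13 other kinases, phosphatases, PDH subunits and pyruvate carriers, 0 passed in limma or limma-voom. Their median was -0.12, and 4 had an unadjusted p under 0.05 (28.1% of all genes). The catalytic subunit *Pdha1* had means of 1661 ± 27.6 and 1576 ± 50.5, and the acetyltransferase subunit *Dlat* means of 1017 ± 31.5 and 897 ± 113.

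Perilipins coat lipid droplets. *Plin2* is present on droplets of most cells and *Plin5*, found in oxidative tissues such as the heart, links droplets to mitochondria. *Plin5* (ENSMUSG00000011305, chr17:56111601-56117596, minus strand) had 14, 7 and 14 counts in DMSO and 32, 34 and 55 in αKG. Its lowest αKG value was above its highest DMSO value, and αKG replicate 3 was the highest. The mean rose from 11.7 ± 4.04 to 40.3 ± 12.7, a log2 difference of 1.72 ± 0.35 (1.48 without αKG replicate 3). In estimated reads, pooled in the same way, this was 38 against 119, of which αKG replicate 3 gave 59. The ratio was 3.38, with an exact 95% counting interval of 2.33 to 5.01. This interval also leaves out the spread between libraries. The call of *Plin5* was the least stable of the 4, and was kept in 4 of 15 alternative fits.

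*Plin2* (ENSMUSG00000028494, chr4:86648386-86670060, minus strand) had 253, 250 and 282 counts in DMSO and 208, 239 and 234 in αKG. It was the only one of the 9 genes with lower values in every αKG library, but the highest αKG value lay close to the lowest DMSO value. Means were 262 ± 17.7 and 227 ± 16.6, a log2 difference of -0.20 ± 0.10 that passed in none of the 15 alternative fits. Per exon length, the share of *Plin5* among *Plin2* to *Plin5* was 2.45 ± 0.81% in DMSO and 8.85 ± 2.20% in αKG, while *Plin2*, *Plin3* and *Plin4* held mean shares between 28.3% and 36.4% in both groups. *Plin1*, the perilipin of adipocytes, was not listed.

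Of the 24 other lipid droplet and triacylglycerol genes, 21 were listed, with a median of 0.00. In the fit of all libraries 2 rose and 0 fell. With a pseudocount of 5, with only genes of a mean of at least 10, or with libraries scaled to the same total, 2 were higher and 2 lower (*Pnpla2* and *Abhd5*), and without αKG replicate 3 there were 5 higher and 7 lower. *Dgat2*, which makes triacylglycerol, had 35, 31 and 34 counts in DMSO and 60, 65 and 66 in αKG (0.91 ± 0.18, limma adjusted p = 0.0354). *Lipe*, hormone-sensitive lipase, had 78, 67 and 80 in DMSO and 124, 114 and 133 in αKG (0.72 ± 0.14, limma adjusted p = 0.036). In both genes αKG replicate 3 was the highest library, which held for 3 of the 21 listed genes, beside 13.0% of all genes. *Pnpla2*, the lipase that starts the breakdown of triacylglycerol, had lower values in every αKG library, 417, 451 and 488 against 546, 583 and 596, but did not pass with the settings used throughout (-0.35 ± 0.08, limma adjusted p = 0.0509). *Pnpla2* and *Abhd5*, the activator of this lipase, were named after their values were seen.

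*Angptl4* encodes a secreted inhibitor of lipoprotein lipase (LPL). It (ENSMUSG00000002289, chr17:33773750-33781830, minus strand) had 4, 6 and 10 counts in DMSO and 24, 15 and 20 in αKG. The groups did not overlap, although the values were low. Means were 6.67 ± 3.06 and 19.7 ± 4.51, a log2 difference of 1.48 ± 0.39. In estimated reads this was 21 against 56, a ratio of 2.88 with an exact 95% counting interval of 1.72 to 5.01. The interval covers counting error and not the spread between libraries. It passed in 1 of 15 alternative fits, the one without αKG replicate 3, where the difference was 1.46.

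Of 13 other angiopoietin-like genes and LPL partners, 12 were listed, 2 rose and 0 fell, with a median of 0.36. *Vldlr*, the receptor that takes up triacylglycerol-rich lipoproteins, had 1405, 1368 and 1492 counts in DMSO and 2127, 2320 and 1772 in αKG (0.54 ± 0.09, limma adjusted p = 0.026). αKG replicate 3 was its lowest αKG library. No gene of this list was alone the highest in that library. *Gpihbp1*, the anchor of LPL on endothelium, had 14, 7 and 10 counts in DMSO and 1, 3 and 6 in αKG and did not pass (-1.52 ± 0.53, limma adjusted p = 0.108). It was named after its values were seen. LPL itself (*Lpl*) overlapped between groups, with 1607, 1658 and 1650 counts in DMSO and 1921, 2101 and 1521 in αKG.

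*Cd36* encodes the membrane transporter of long-chain fatty acids. It (ENSMUSG00000002944, chr5:17781690-17888801, minus strand) had 786, 744 and 846 counts in DMSO and 740, 874 and 1003 in αKG. The groups overlapped, with the lowest of all 6 values in αKG replicate 1 and the highest in αKG replicate 3. Means were 792 ± 51.3 and 872 ± 132, a log2 difference of 0.13 ± 0.11, and 0.02 without αKG replicate 3. *Cd36* passed in none of the 15 alternative fits. *Cd36* is expressed in endothelial cells as well as in CMs, and endothelial markers were lower in αKG, as given below. Of the 7 scavenger receptors, caveolar proteins and palmitoyl transferases listed with it, 0 passed in limma or limma-voom. An unadjusted p under 0.05 was found for 3 (28.1% of all genes). The most abundant, *Cavin1* of caveolae, had means of 1386 ± 9.29 and 1361 ± 17.3, and the lysosomal receptor *Scarb2* means of 1069 ± 43.1 and 1224 ± 146.

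**Figure D3:**
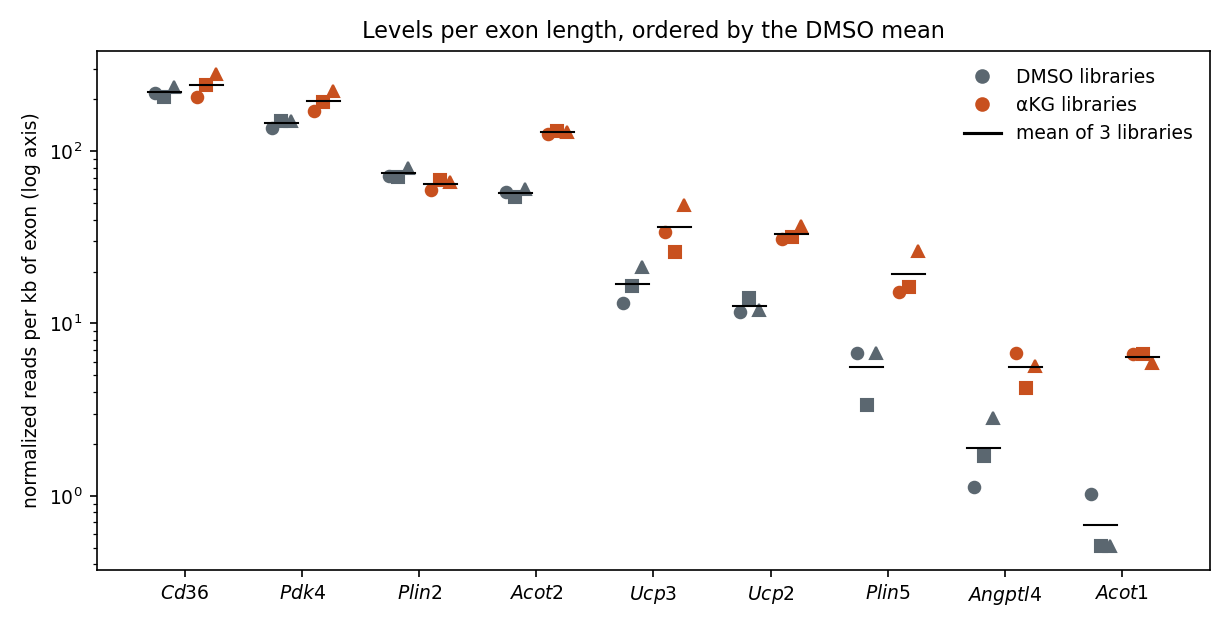
Normalized reads per kb of exon (log axis) of the 9 genes in the DMSO (grey) and αKG (orange) libraries, with a circle, square and triangle for replicates 1 to 3 and a line at the mean of 3 libraries. Levels run from 0.68 (*Acot1*) to 221 (*Cd36*) in DMSO, and *Acot2* stands below *Plin2* in DMSO but above it in αKG.

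Per kb of exon, the levels of the 9 genes covered more than 2 orders of magnitude. In DMSO the order was *Cd36* (221 ± 14.3 normalized reads per kb), *Pdk4* (145 ± 8.56), *Plin2* (74.5 ± 5.03), *Acot2* (57.5 ± 3.20), *Ucp3* (17.0 ± 4.16), *Ucp2* (12.6 ± 1.25), *Plin5* (5.59 ± 1.94), *Angptl4* (1.88 ± 0.86) and *Acot1* (0.68 ± 0.29). Neighbours in this order were separate in all libraries except *Ucp3* and *Ucp2*, whose ranges overlapped. In αKG, *Cd36* (243 ± 36.6) and *Pdk4* (196 ± 26.1) overlapped, *Acot2* (128 ± 2.77) lay above *Plin2* (64.6 ± 4.74), *Ucp3* (36.3 ± 11.5) and *Ucp2* (33.2 ± 3.25) overlapped, and so did *Acot1* (6.38 ± 0.44) and *Angptl4* (5.55 ± 1.27), below *Plin5* (19.3 ± 6.10). The genes with the smallest log2 differences, *Cd36*, *Plin2* and *Pdk4*, were thus the 3 with the highest levels in control cells.

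No receptor gene passed the threshold. Of 22 genes for PPARs, RXRs and their coregulators, 0 passed in limma or limma-voom. An unadjusted p under 0.05 was found for 12 (28.1% of all genes). Their median log2 difference was -0.20, and 11 had lower values in every αKG library (14.6% of all genes) while 1, *Esrrb*, had higher ones (54.7 ± 2.89 and 74.7 ± 13.3). *Ppara*, which encodes PPARα and was named after its values were seen, had 207, 195 and 181 counts in DMSO and 99, 101 and 159 in αKG. All αKG values were lower, and αKG replicate 3 was nearest to DMSO (-0.73 ± 0.18, limma adjusted p = 0.0542). The most abundant of the list were the corepressor *Ncor1*, with means of 2294 ± 79.1 and 2172 ± 25.7, and the coactivator *Ppargc1a*, with 1611, 1615 and 1677 counts in DMSO and 1205, 1199 and 1524 in αKG (-0.33 ± 0.09, limma adjusted p = 0.0689).

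β-oxidation and fatty acid import are the best known PPAR targets. Of 37 genes for these steps, 3 rose and 0 fell, or 3 in limma-voom too, and the median was 0.06, with 19 of 37 differences above 0. Against the DMSO mean, their median was -0.05, -0.003 and 0.13 in αKG replicates 1, 2 and 3. For 15 of the 37, αKG replicate 3 was the highest of all 6 libraries. *Slc25a34*, a mitochondrial carrier, had 7, 5 and 4 counts in DMSO and 33, 31 and 27 in αKG (2.33 ± 0.32, limma adjusted p = 0.0108). *Acsl1*, the main acyl-CoA synthetase of the heart, had 1082, 1146 and 1153 in DMSO and 1494, 1482 and 1484 in αKG (0.40 ± 0.06, limma adjusted p = 0.0118). *Acsl3*, a synthetase found at lipid droplets, had 322, 297 and 337 in DMSO and 416, 453 and 491 in αKG (0.51 ± 0.09, limma adjusted p = 0.0294). Like *Acot1* and *Acot2*, *Slc25a34* and *Acsl1* had nearly the same value in all αKG libraries. The enzymes of the β-oxidation cycle were among the genes that did not pass. Of 16 peroxisomal targets, 13 were listed and 0 passed in limma or limma-voom. Their median was -0.15, and 4 had an unadjusted p under 0.05 (28.1% of all genes). The peroxisomal transporter *Abcd3* had means of 749 ± 24.2 and 677 ± 30.1.

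**Figure D4:**
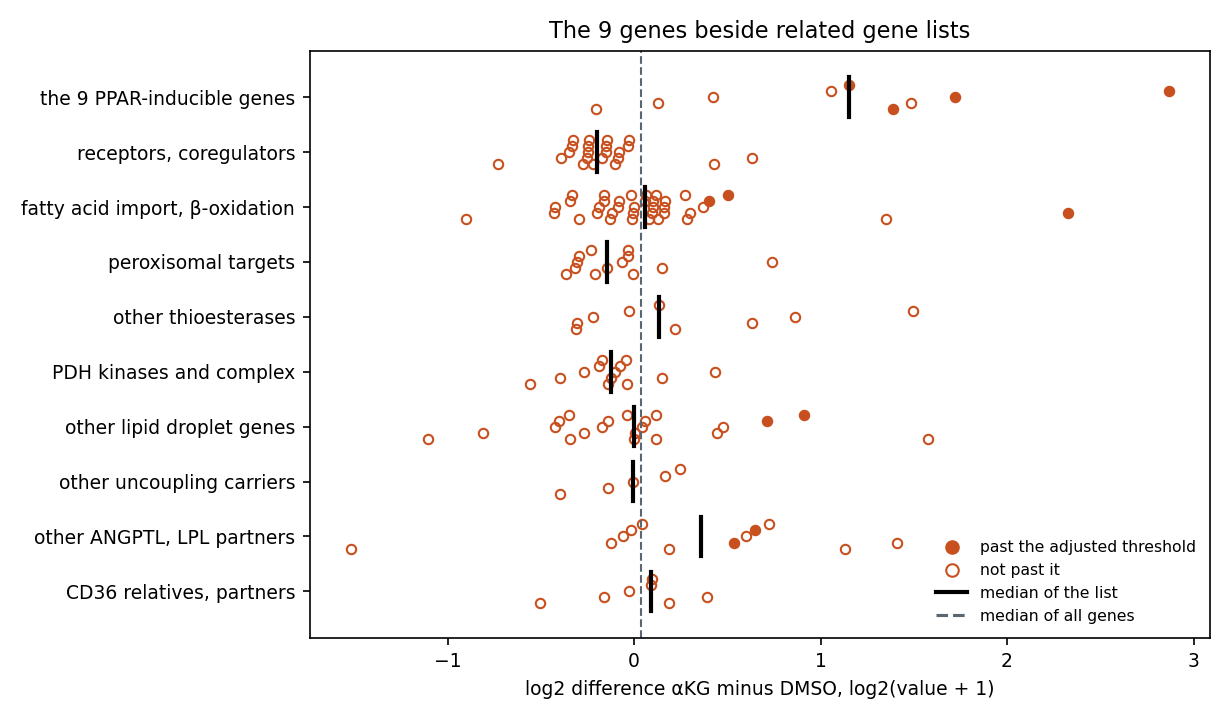
Log2 difference between αKG and DMSO (horizontal axis, log2(value + 1)) of every listed gene of the 9-gene set and of 9 related lists, with filled points for genes past the adjusted threshold, a black bar at each median and a dashed line at the median of all genes, 0.04. The median of the 9 genes is 1.15, and those of the other lists lie between -0.20 and 0.36.

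Genes of the other known inducers were then placed beside the 9 genes. Of 17 HIF targets, 0 passed in limma or limma-voom and 7 had an unadjusted p under 0.05 (28.1% of all genes). Their median was 0.68 in αKG replicate 1, 0.69 in replicate 2 and -0.07 in replicate 3, and none was highest in replicate 3. The most abundant was *Hk2*, hexokinase, with means of 1122 ± 32.6 and 1269 ± 181. It was followed by *Vegfa*, with 840, 863 and 910 counts in DMSO and 1350, 1396 and 838 in αKG. The median of the 9 genes was 1.53 in replicate 3, the highest of its 3 libraries. Whether the lists differ in this respect was not tested. Of 10 glucocorticoid receptor targets, *Sgk1*, a kinase, fell from 109 ± 9.71 to 54.7 ± 12.6 (-0.999 ± 0.191, limma adjusted p = 0.0334), 0 rose, and the median was 0.03. Of 10 FOXO targets, 0 passed in limma or limma-voom and 3 had an unadjusted p under 0.05 (28.1% of all genes). Their median was -0.16. *Txnip* had means of 1291 ± 54.2 and 1183 ± 103, and *Fbxo32* means of 1055 ± 109 and 870 ± 105.

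**Figure D5:**
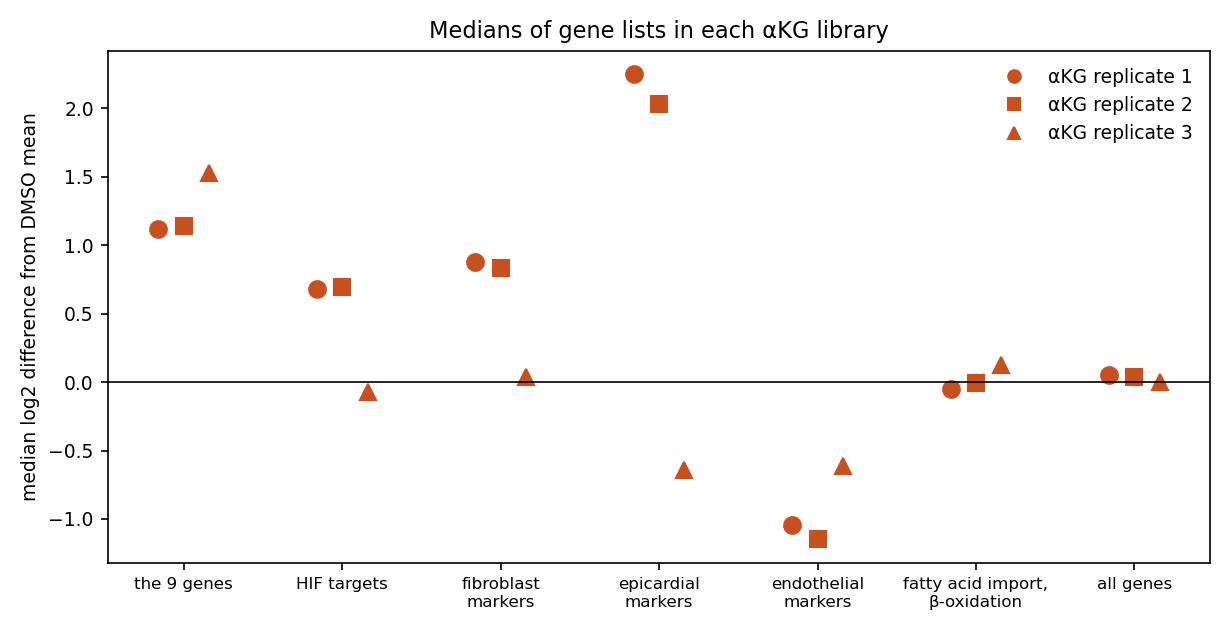
Median log2 difference from the DMSO mean (vertical axis) in αKG replicates 1, 2 and 3 (circle, square, triangle) for the 9 genes, 5 other lists and all genes. HIF targets, fibroblast markers and epicardial markers are high in replicates 1 and 2 and near or below 0 in replicate 3, whereas the 9 genes are at 1.12, 1.14 and 1.53.

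Markers of several other cell types differed from DMSO in some or all αKG libraries. In bulk RNA, fewer cells of a type and less RNA per cell cannot be told apart. Endothelial markers fell, 8 of 10 in limma and 4 in limma-voom, with a summed value of 1776 to 1920 in DMSO and 977, 853 and 1166 in αKG replicates 1 to 3 (*Cdh5*, *Kdr* and *Pecam1* each by 1.04 to 1.14 on the log2 scale). Fibroblast markers had 0 calls in limma or limma-voom and 6 at an unadjusted p under 0.05 (28.1% of all genes). Their summed value was 3251 to 3436 in DMSO and 7268, 7094 and 3314 in αKG, led by the collagens *Col1a1*, *Col1a2* and *Col3a1*. Epicardial markers, led by *Tbx18*, *Krt18* and *Upk3b*, had 0 calls in both and 3 at an unadjusted p under 0.05 (28.1% of all genes). Their summed values were 501 to 547 in DMSO and 1266, 1253 and 518 in αKG. *Tbx18* supplied most of the epicardial sum in DMSO. Without it, a split made after the values were seen, the sums were 195 to 218 in DMSO and 858, 848 and 167 in αKG, and 7 of the 10 epicardial markers in αKG replicate 3 lay below every DMSO library. In αKG replicate 3, the fibroblast sum was thus within the DMSO range and the epicardial sum within it or, without *Tbx18*, below it. The endothelial sum in that library was below the DMSO range. Of 10 mural markers, *Cspg4* rose in limma but not in limma-voom (0.66 ± 0.13, limma adjusted p = 0.0362), and the summed value was 5699 to 5800 in DMSO and 6141 to 6631 in αKG. CM markers had 0 calls in limma or limma-voom and 5 at an unadjusted p under 0.05 (28.1% of all genes).

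Markers of adipocytes and macrophages were low or not listed. Of 10 adipocyte markers, *Fabp4* and *Adrb3* were listed, with a summed value of 26 to 32 in DMSO and 8 to 20 in αKG, and *Adipoq*, *Lep*, *Plin1* and *Cidec* were among the 8 not listed. Of 10 macrophage markers, 5 were listed, led by *Mrc1*, *Cd68* and *Lyz2*, with a summed value of 23 to 35 in DMSO and 26 to 41 in αKG, and *Adgre1*, *C1qa* and *Ptprc* were among those not listed. Both lists had 0 calls in limma or limma-voom, and 1 and 0 genes at an unadjusted p under 0.05 (28.1% of all genes). The part of endothelial, fibroblast and epicardial cells in the values of the 9 genes was not tested.

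The genes whose profile over the 6 libraries was most like that of the 9 genes were sought among 8290 genes whose mean reached 100. The measure was Pearson's r with the mean of the centred log2 values of the 9 genes, as a description without a test, since the libraries fall into 2 groups and most of r comes from the difference between these. *Pdlim3*, a muscle LIM protein (0.989), *Cdh3*, P-cadherin (0.989), *Nin*, ninein of the centrosome (0.989), *Selenoi* (0.988) and *Tspan9*, a tetraspanin (0.987), came first. *Cdh3* had 79, 77 and 85 counts in DMSO and 233, 210 and 232 in αKG (1.47 ± 0.12, limma adjusted p = 0.00127), and *Pdlim3* 174, 188 and 191 in DMSO and 290, 302 and 341 in αKG (0.75 ± 0.10, limma adjusted p = 0.00985). An r above 0.9 was reached by 189 genes.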

How the data were processed

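Per the labels and the methods of the study, total RNA of neonatal CMs was made into 6 libraries (3 DMSO, 3 αKG) with a stranded kit and sequenced as single reads of 75 bases. The submitters' processing notes name FastQC 0.11.8, Trimmomatic 0.39, STAR 2.7.10a, Picard 2.27.1, featureCounts 2.0.3, DESeq2 1.30.1 and mm10 (GRCm38.p5). The authors assigned reads to genes by their overlap with exons and dropped ambiguous reads. The deposited values are treated as a score, because the authors had scaled the counts to a common depth and rounded them, and a count model was therefore not used.

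Column totals lay between 4069900 and 4168009. The value of 1 read, estimated from the spacing of low values, was 0.926 to 1.119. Genes below a value of 2 in all libraries were not listed. All 6 libraries entered 1 limma fit with a variance trend on log2(value + 1), with treatment as its only term and no filter (limma 3.58.1, R 4.3.3, tested on simulated data; Python 3.11.15 for tables and plots). The pseudocount understates differences of low genes. Calls are Benjamini-Hochberg adjusted over 20066 genes, two-sided. Exon lengths came from GENCODE M21, in which 99.0% of genes had the same position, and promoters from RefSeq.

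The 9 genes and all lists were chosen with earlier results of these data known. Named are the 9 genes, up to 4 called genes of each list or its 2 most abundant where fewer than 2 passed, the 3 most abundant of each marker list, and the 5 genes of most similar profile. Others are marked in the text, and some genes that the rule names are not reported here. Alternatives were pseudocount, filter, scaling, variance model, replicate block and leaving out each library.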

Additional observations from a re-analysis of the deposited data

How the results depend on the processing

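No log2 difference of the 9 genes changed sign in 15 alternative fits. For all but *Cd36* this was largely fixed in advance, because the groups did not overlap. The ranges were 1.98 to 3.26 for *Acot1*, 1.11 to 1.19 for *Acot2*, 0.33 to 0.52 for *Pdk4*, 1.02 to 1.78 for *Angptl4*, 1.31 to 1.47 for *Ucp2*, 0.82 to 1.27 for *Ucp3*, -0.24 to -0.14 for *Plin2*, 1.29 to 1.87 for *Plin5* and 0.02 to 0.24 for *Cd36*, and the median of the 9 genes lay between 1.02 and 1.27. Calls were less stable, and the cause was not tested. The count over the whole table, 759, was 346 with a pseudocount of 0.1, 27 in limma without the variance trend, 351 in limma-voom, 19 with DMSO replicates 2 and 3 averaged, 5648 at an unadjusted p under 0.05 and 0 to 7466 with a library left out. The 4 calls among the 9 genes became 2 without the variance trend, 2 with DMSO replicates 2 and 3 averaged, 7 unadjusted and 0 to 7 with a library left out. At an unadjusted p under 0.05 the lists held 12 receptor and coregulator genes, 10 of fatty acid import and β-oxidation, 4 peroxisomal, 2 thioesterase, 4 PDH, 12 lipid droplet, 5 angiopoietin-like or LPL partner, 3 CD36-related, 7 HIF, 3 glucocorticoid and 3 FOXO genes. The share of all genes at this threshold was 28.1%. With a library left out, calls ranged from 0 to 14 (receptors), 0 to 14 (fatty acid import and β-oxidation), 0 to 6 (peroxisomal), 0 to 2 (thioesterases), 0 to 8 (PDH), 0 to 12 (lipid droplet), 0 to 2 (uncoupling relatives), 0 to 6 (angiopoietin-like), 0 to 5 (CD36-related), 0 to 12 (HIF), 0 to 5 (glucocorticoid) and 0 to 3 (FOXO). The highest counts were those without αKG replicate 3. Without the variance trend 1 gene of fatty acid import and β-oxidation remained called, and 0 of the lipid droplet, angiopoietin-like and glucocorticoid lists, and with DMSO replicates 2 and 3 averaged 0 of all 4. Scaled to the same total, libraries gave 1 call each among receptors and PDH genes, and 4 (2 higher, 2 lower) among lipid droplet genes, as did a pseudocount of 5 and a mean of at least 10, while quantile normalization and limma-voom gave 1 each. Quantile normalization moved the median of all genes from 0.04 to -0.06.

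Deviations from the group means correlated at -0.04, 0.06 and 0.02 between same-numbered libraries, so no pairing by replicate number was seen. With 3 libraries per group, and αKG replicate 3 apart from its group, this cannot decide whether same-numbered libraries shared a cell isolation. A fit with the replicate number as a block called 46 genes over the table (0.229%), 2 of the 9 genes (*Acot2* and *Ucp2*), and 0 of the lists of fatty acid import and β-oxidation, lipid droplet, angiopoietin-like and glucocorticoid genes.

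Depth limits the precision of *Acot1*, *Angptl4* and *Plin5*, which had 8, 21 and 38 estimated reads over the 3 DMSO libraries together.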
